A study of Mus musculus with 6 samples.

Results

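Hormone sensing cells are the luminal cells of the mammary duct that carry the receptors for estrogen and progesterone. In these cells estrogen acts through the receptor encoded by *Esr1*, with FOXA1 opening chromatin at many of its binding sites, and induces target genes such as *Pgr*, the progesterone receptor, and *Greb1*. Their signal is then passed to neighboring cells by secreted factors, among them amphiregulin (*Areg*), WNT4 and RANK ligand (*Tnfsf11*). Described here are 9 genes used as markers or effectors of this cell type: *Esr1*, *Pgr*, *Foxa1*, *Greb1*, *Cited1*, *Tnfsf11*, *Ly6a*, *Stc2* and *Tbx3*. They were chosen by symbol from the 37753 entries of the expression table that hold values, and all 9 were found, each on an entry of its own.

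Gene expression was measured by RNA-seq in primary mammary epithelium (MEC), as 3 separate preparations, and in 3 ME KO tumor cell lines, 1 library each, all on a C57/Bl6J background. MEC came from WAPCre+ animals: the glands of 3 to 5 virgin females of 10 to 12 weeks were pooled for a preparation, cultured on collagen I in medium with serum, EGF and insulin, and harvested near confluence. ME KO lines 199, 233 and 336 are Cre+ with knockout of *Mapk8* and *Mapk9*, the genes of JNK1 and JNK2, and each was grown from a tumor, with 2 passages on collagen I before transfer to regular dishes. The age of the tumor-bearing animals was not given in the labels. Both groups carry Cre under the promoter of whey acidic protein, which is active in luminal cells of the lactating gland. Neither estradiol nor progesterone is named in the description of either medium. For the lines the study's methods name serum in the medium but no EGF or insulin. Genotype, tumor origin, parity, animal age, culture surface, medium and time in culture change together between the groups. Their parts in any difference cannot be told apart. In bulk RNA fewer cells of a type cannot be told apart from less RNA per cell.

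Expression is given as FPKM, fragments scaled to the length of the gene's transcript and to the size of the library, which is a level per length and so can be compared between genes. Changes were tested with limma on log2(FPKM + 1), a scale that understates the change of low genes. A gene was called when its Benjamini-Hochberg adjusted p was under 0.05 and its log2 fold change lay beyond 0.75 in either direction. The 12461 entries with a mean of at least 1 FPKM over the 6 libraries were tested, and 7.26% of them were called lower and 2.64% higher in ME KO. FPKM carries no read number, so no counting interval is given. The ratios of the smallest values put the relative depth of the other libraries at 0.92 to 1.3 times that of MEC 1.

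*Mapk8* had 19.2 to 25.1 FPKM in MEC and 1.37 to 5.93 FPKM in ME KO, and *Mapk9* had 21.5 to 24.4 and 3.07 to 7.62 FPKM, with line 199 the highest of the lines for both. Both genes fell (limma adjusted p = 0.0146 and 0.0122), and without MEC 1, MEC 2 or MEC 3 the adjusted p was 0.0576 to 0.0728 for *Mapk8* and 0.0558 to 0.0707 for *Mapk9*. The MEC preparations expressed luminal and basal keratins, *Krt8* at 1844 to 3406 FPKM and *Krt5* at 201 to 436 FPKM. In the lines *Krt8* was between 230 and 539 FPKM, and *Krt5* was at 608 FPKM in line 199 but at 1.33 and 15.3 FPKM in lines 233 and 336. Line 199 also held 1111 FPKM summed over 9 fibroblast markers, against 119 to 208 in MEC and 2.44 and 4.23 in the other lines. Most of it was in the collagens. Of the other markers in line 199, *Pdgfrb* (19.0 FPKM) and *Pdgfra* (1.3 FPKM) were above every MEC preparation. *Thy1* (11.1 FPKM) was below every MEC preparation, and *Lum*, *Dcn* and *Fap* were below 0.4 FPKM there. Of the 9, 6 were tested, and *Dcn* was the one of these that fell (limma adjusted p = 0.00821), with 0.0588 without MEC 1 and 0.0557 without MEC 2. *Lum*, *Fap* and *Pdgfra* were below the filter. Without the filter the limma adjusted p was 0.0329 for *Lum* and 0.011 for *Fap*, with log2 differences of -0.94 and -0.57. That of *Pdgfra* was 0.918. The sum of 6 endothelial markers was 18.7, 22.1 and 2.30 FPKM in MEC 1, 2 and 3 and at most 2.05 in the lines. The 7 leukocyte markers in the table summed to 5.96 to 10.1 FPKM in MEC and 0.953 to 24.9 in the lines, where *Cd68* alone gave 23.4 FPKM in line 336 and *Ptprc* was at most 0.0146 FPKM, and the 4 adipocyte markers to 1.28 to 11.7 and 0.0898 to 1.17 FPKM. The part of these cells in the results below was not tested.

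Of the 9 hormone sensing genes, 4 fell in ME KO, *Pgr*, *Foxa1*, *Stc2* and *Tbx3*, and none rose. Over all tested entries 7.26% were called lower and 2.64% higher, and these shares also stand beside the list counts below. *Esr1* and *Ly6a* were tested and not called. *Greb1*, *Cited1* and *Tnfsf11* had means below 1 FPKM and were not tested. In 6 of the 9 genes, these 4 with *Greb1* and *Cited1*, no line reached the lowest MEC preparation, which held for 16.7% of the 21813 entries above 0 in at least 1 library. The exact permutation test, two-sided, gave p = 0.1 for each of the 6, the smallest p that 3 libraries against 3 allow. With MEC 1 or MEC 2 left out, 1 of the 9 was called lower (*Pgr*), and with MEC 3 left out, 2 (*Pgr* and *Foxa1*).

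**Figure D1:**
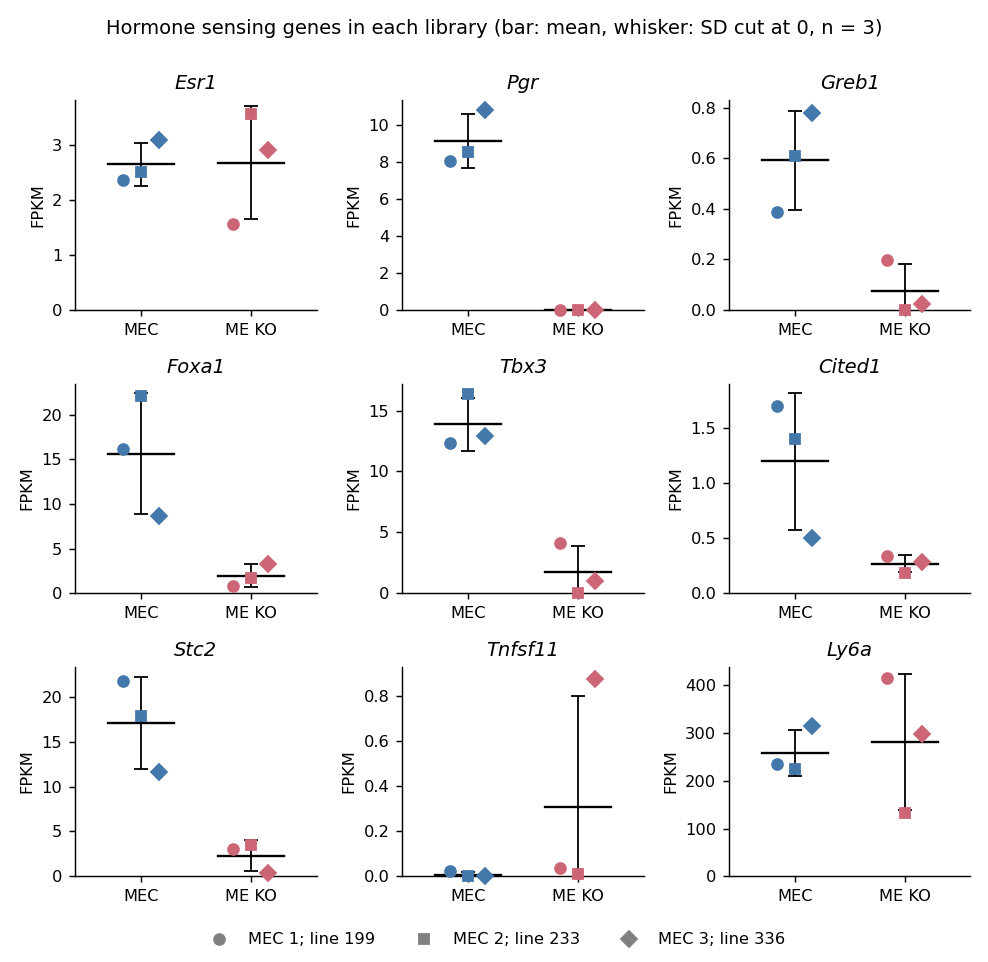
FPKM of the 9 genes in each library, MEC in blue and ME KO in red, with a linear axis of its own for each gene; horizontal bars are means and whiskers the SD (n = 3). Marker shapes only identify libraries and pair none of them. *Pgr* is at 0 in all 3 lines, *Esr1* and *Ly6a* overlap between the groups, and *Tnfsf11* is visible only in line 336.

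In MEC the order of the levels ran from *Ly6a* (258 FPKM) through *Stc2* (17.1), *Foxa1* (15.6), *Tbx3* (13.9), *Pgr* (9.13), *Esr1* (2.65), *Cited1* (1.20) and *Greb1* (0.592) to *Tnfsf11* (0.00789), as means of 3 preparations. The ranges of *Stc2*, *Foxa1* and *Tbx3* overlapped, as did those of *Foxa1* and *Pgr* and of *Cited1* and *Greb1*, while *Tbx3* lay above *Pgr* in all 3 preparations. *Ly6a* was the highest in every library of both groups and ranked 295th of 37753 entries in MEC. In ME KO *Esr1* (2.68 FPKM) came next after *Ly6a* (282), followed by *Stc2* (2.31), *Foxa1* (1.95) and *Tbx3* (1.73), whose ranges overlapped with each other and with that of *Esr1*.

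*Esr1* (chromosome 10 of GRCm38, 4611593 to 5005614, plus strand), the estrogen receptor alpha gene, was low in both groups. It had 2.35, 2.50 and 3.08 FPKM in MEC 1, 2 and 3, and 1.56, 3.56 and 2.91 FPKM in lines 199, 233 and 336. The MEC values lay within the range of the lines, with line 199 the lowest of the 6 libraries and line 233 the highest. The log2 fold change was -0.02 (95% interval -0.68 to 0.63, limma adjusted p = 0.967), and the exact permutation p was 0.9. Its sign changed between alternatives, from -0.20 without line 233 to 0.29 with quantile normalization, and it was called in none of them.

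*Pgr* (chromosome 9, 8899833 to 8968611, plus strand), the progesterone receptor gene and a textbook target of the estrogen receptor, had 8.06, 8.54 and 10.8 FPKM in MEC. It was listed at 0 in lines 199, 233 and 336. No fold change on the linear scale can be given against a group at 0, and on the log2(FPKM + 1) scale the difference was -3.33 with a standard error of 0.20 (limma adjusted p = 0.00094). It was called in all 12 alternatives that tested it, with adjusted p values from 0.000462 to 0.0138. With every line at 0 the spread within the lines was 0, and leaving out a line could not change the difference of -3.33. Of 8464 entries at 5 FPKM or more in every MEC library, 4 were listed at 0 in every line (0.0473%), and *Pgr* was one of them. This cut was not among the planned comparisons and restates the values of *Pgr*, so the share is a description and no test. The ratio of *Pgr* to *Esr1* was 3.42, 3.42 and 3.50 in MEC 1, 2 and 3. In each line it was 0, which restates the values of *Pgr*. The ratio of *Foxa1* to *Esr1* varied more over the same preparations, at 6.86, 8.86 and 2.80. It was 0.539, 0.476 and 1.14 in lines 199, 233 and 336.

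The genes around *Pgr* were then examined, a choice made after its values were seen. Within 2 Mb lay 13 other tested genes, with a median log2 fold change of -1.28 (-0.21 in line 199, -1.83 in line 233 and -1.67 in line 336). Of the 13, 4 were called lower and none higher, where 7.26% of all tested entries were called lower and 2.64% higher. The 4 were *Gm16485*, which begins 3.18 kb beyond the end of *Pgr* on the same strand, *Arhgap42* at 25.7 kb, *Trpc6* at 219 kb and *Mmp12* at 1530 kb. *Gm16485* had 2.33 to 3.07 FPKM in MEC and was at or below 0.00446 FPKM in the lines. Whether its reads come from a transcript separate from *Pgr* was not tested. *Trpc6*, which encodes a calcium-permeable cation channel, had 2.26 to 3.8 FPKM in MEC and at most 0.0535 FPKM in the lines (limma log2 fold change -1.94, adjusted p = 0.00811). *Arhgap42*, the gene of a GTPase-activating protein, fell from 16.9 to 30.4 FPKM in MEC to 3.62 to 7.29 FPKM. The next tested gene beyond *Trpc6*, *Yap1* at 895 kb, had 49.6 to 56.5 FPKM in MEC and 52.1 to 73.1 FPKM in the lines (adjusted p = 0.546). The 3 tested genes nearest to *Pgr* were thus lower in the lines, while *Yap1* was not called. Beyond *Yap1*, *Tmem123* had a log2 fold change of -1.58 with no overlap of the groups and *Birc3* one of -1.28, and neither was called. At the other called members the neighbors within 2 Mb had median log2 fold changes of 0.04 (*Foxa1*, 10 genes), -0.07 (*Stc2*, 28 genes) and 0.18 (*Tbx3*, 28 genes) and included 0, 1 and 1 genes called lower. A cause shared by *Pgr* and its neighbors was not tested.

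*Greb1* (chromosome 12, 16670615 to 16800886, minus strand), another estrogen target, whose product is a cofactor of the receptor, had 0.387, 0.609 and 0.779 FPKM in MEC. In lines 199, 233 and 336 it had 0.198, 0 and 0.0244 FPKM, each below every MEC library. Means were 0.592 ± 0.196 FPKM for MEC and 0.0740 ± 0.108 FPKM for the lines (SD, n = 3), and without the filter on low genes its limma adjusted p was 0.053. An antisense gene, *Gm48140*, overlaps 7.68% of its exonic bases, and strand was not stated for the counting.

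*Foxa1* (chromosome 12, 57540628 to 57546916, minus strand), which encodes the pioneer factor of estrogen receptor binding, had 16.2, 22.1 and 8.62 FPKM in MEC and 0.840, 1.70 and 3.33 FPKM in lines 199, 233 and 336. The groups lay apart, with MEC 3 the lowest of MEC and line 336 the highest of the lines. The mean fell 8.0-fold, from 15.6 ± 6.76 to 1.95 ± 1.26 FPKM (SD, n = 3), or by -2.49 on the log2 scale with a standard error of 0.43 (limma adjusted p = 0.0198). The adjusted p was above 0.05 without MEC 1 (0.0919), MEC 2 (0.0823) or line 233 (0.0516), with log2 fold changes from -2.47 to -2.21.

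RefSeq promoter sequences (GRCm38.p6) were matched for 7 of the 9 genes, and those of *Pgr*, *Foxa1* and *Greb1* are shown as those of 2 textbook estrogen targets and of the pioneer factor of the receptor. *Cited1* and *Stc2*, which were also below MEC in every line, have promoters there too. Each runs from 250 bases before the annotated start toward it, stopping at the first base of an annotated exon. The *Foxa1* window precedes the first exon of its shorter GENCODE transcript, and it lies in an intron of a longer one, within the span given above. Capitals mark matches, on either strand, to GGTCA, the core of the estrogen response element, the forkhead motif TGTTTAC and the TATA box TATAAA.
Pgr, chr9:8899583-8899832, plus strand: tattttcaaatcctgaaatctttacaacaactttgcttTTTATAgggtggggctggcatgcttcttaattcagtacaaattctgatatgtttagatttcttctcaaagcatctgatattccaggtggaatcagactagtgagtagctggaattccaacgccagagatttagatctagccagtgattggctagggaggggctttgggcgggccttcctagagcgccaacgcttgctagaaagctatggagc
Foxa1, chr12:57546122-57546361, minus strand: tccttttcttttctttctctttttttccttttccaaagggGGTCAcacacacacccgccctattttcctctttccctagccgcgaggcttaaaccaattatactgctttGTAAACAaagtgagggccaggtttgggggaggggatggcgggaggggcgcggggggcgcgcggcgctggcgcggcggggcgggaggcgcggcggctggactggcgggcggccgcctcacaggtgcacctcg
Greb1, chr12:16800887-16801136, minus strand: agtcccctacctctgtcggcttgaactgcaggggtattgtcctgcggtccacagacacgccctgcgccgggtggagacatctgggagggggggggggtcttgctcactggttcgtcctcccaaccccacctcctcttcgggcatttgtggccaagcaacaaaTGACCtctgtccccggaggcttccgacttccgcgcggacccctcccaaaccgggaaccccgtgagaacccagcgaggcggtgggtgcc

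The core GGTCA begins 210 bases before the start of *Foxa1* and 88 bases before that of *Greb1*. A second *Greb1* promoter, not shown, has it 2 times, and *Cited1* has it at 189 bases in one promoter and at 217 in another, while *Stc2* has none of the motifs searched. Of all promoters, 35.2% of 32851 in RefSeq hold it in the same 250 bases. The forkhead motif begins 141 bases before the start of *Foxa1*, the gene of a forkhead factor, and 3.17% of promoters hold it. *Pgr* had neither, and its match to the TATA box begins 212 bases before the start, with one present in 12.4% of promoters. The full estrogen response element, in which GGTCA is followed after 3 bases by its reverse complement, so that it overlaps the core on both strands, is in 0.0639% of promoters and in none of the windows of the 7 genes. The forkhead variant TATTTAC (2.73% of promoters) and the AP1 site TGANTCA (6.75%) are in none of them either.

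*Tbx3* (chromosome 5, 119670669 to 119684724, plus strand), a T-box transcription factor gene needed for formation of the mammary gland, had 12.3, 16.4 and 12.9 FPKM in MEC. In the lines it spread widely, with 4.12 FPKM in line 199, 0.0513 in line 233 and 1.03 in line 336, all below MEC. Means were 13.9 ± 2.2 FPKM for MEC and 1.73 ± 2.12 FPKM for the lines (SD, n = 3). The log2 fold change was -2.74 with a standard error of 0.55 (limma adjusted p = 0.0308). It was called in 7 of 13 alternatives, and its adjusted p was 0.109, 0.119, 0.110 and 0.0739 without MEC 1, MEC 2, MEC 3 and line 336, 0.0795 with a pseudocount of 0.1 and 0.0574 without the filter. *Tbx3os1* overlaps 1.74% of its exonic bases on the opposite strand.

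*Cited1* (chromosome X, 102247381 to 102252181, minus strand), a transcriptional coregulator of the estrogen receptor, had 1.70, 1.40 and 0.498 FPKM in MEC and 0.335, 0.184 and 0.287 FPKM in the lines. Every line was below every preparation, but MEC 3 lay closer to the lines than to MEC 1 and MEC 2. The ratio of the means was 4.46, and without the filter the limma adjusted p was 0.137.

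*Stc2* (chromosome 11, 31357307 to 31370074, minus strand) encodes stanniocalcin 2, a secreted glycoprotein. It had 21.8, 17.9 and 11.6 FPKM in MEC 1, 2 and 3 and 3.07, 3.53 and 0.344 FPKM in lines 199, 233 and 336. Line 336 kept 2.01% of the MEC mean, against 18.0% and 20.7% in lines 199 and 233. The mean fell 7.38-fold, from 17.1 ± 5.16 to 2.31 ± 1.72 FPKM (SD, n = 3), or by -2.59 on the log2 scale with a standard error of 0.51 (limma adjusted p = 0.028). It was called in 8 of 13 alternatives, and its adjusted p was 0.117, 0.111 and 0.0751 without MEC 1, MEC 2 and MEC 3, 0.0578 with a pseudocount of 0.1 and 0.0518 without the filter.

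*Tnfsf11* (chromosome 14, 78277445 to 78308043, minus strand), the gene of RANK ligand, which progesterone induces in hormone sensing cells, was close to 0 in 5 of 6 libraries. It had 0.0237 FPKM in MEC 1 and was listed at 0 in MEC 2 and MEC 3. Lines 199 and 233 had 0.0363 and 0.0111 FPKM, and line 336 had 0.875 FPKM, the highest value. The groups overlapped (exact permutation test, two-sided, p = 0.2). MEC therefore showed next to none of this ligand while *Pgr* was at 8.06 to 10.8 FPKM, and the one library with a clear value, line 336, had *Pgr* at 0.

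*Ly6a* (chromosome 15, 74994877 to 74998031, minus strand) encodes Sca-1, a surface protein that marks hormone sensing luminal cells in sorted mammary epithelium and is also found on other cells, fibroblasts and endothelium among them. It had 236, 225 and 314 FPKM in MEC and 416, 132 and 299 FPKM in lines 199, 233 and 336. Lines 199 and 233 lay outside the range of MEC on opposite sides, and line 336 within it. The log2 fold change was -0.01 (95% interval -1.02 to 1.00, limma adjusted p = 0.993, exact permutation p = 1.0), with changes of sign between alternatives, from -0.36 without line 199 to 0.46 without line 233. Its relative *Ly6c1* had 13.4 to 17.7 FPKM in MEC and 24.7, 7.25 and 19.3 FPKM in the lines. The *Ly6a* to *Ly6c1* ratio stayed between 13.3 and 19.4 over the 6 libraries, and the transcripts are 84.2% identical over 852 aligned bases. *Ly6i* is 85.6% identical to *Ly6a* over 804 bases, and how reads were divided among such relatives was not tested.

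**Figure D2:**
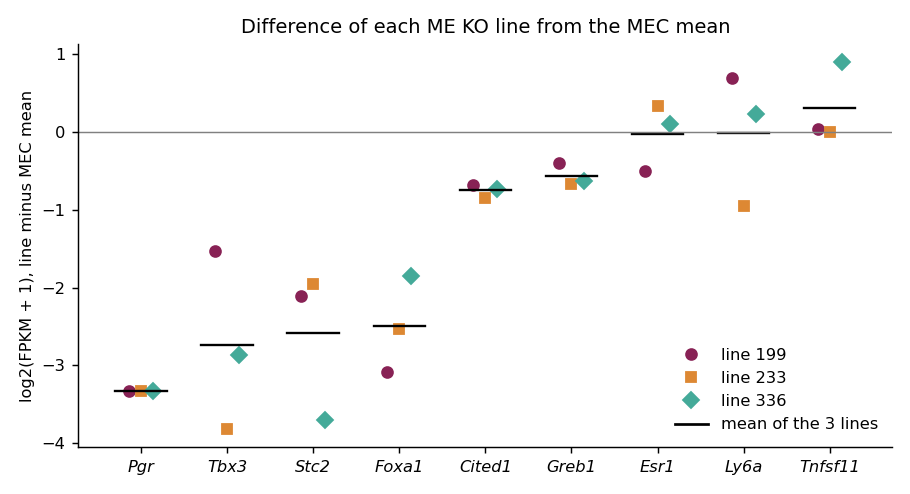
Difference of each ME KO line from the MEC mean on the log2(FPKM + 1) scale for the 9 genes, ordered by the mean of the 3 lines (black bar). *Pgr* is equal in the lines at -3.33, *Tbx3* spreads from -3.81 in line 233 to -1.53 in line 199, and *Esr1* and *Ly6a* lie on both sides of 0.

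The lines differed in which genes were lowest relative to MEC. Line 199 had the least *Foxa1* (5.38% of the MEC mean) and the most *Tbx3* (29.7%) and *Greb1* (33.4%). In line 233 *Tbx3* was at 0.369% and *Stc2* at 20.7%, and in line 336 *Foxa1* was at 21.3% and *Stc2* at 2.01%. Each line is a single library, so differences between lines have no replicate check.

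A list of 17 other hormone sensing and estrogen target genes was examined beside these 9. All 17 were in the table and 13 were tested, of which 6 fell, none rose and 7 were not called. The median log2 fold change of the tested genes was -0.77, against 0.01 over all 12461 tested entries, and it was -0.56 over all 17. Those that fell were *Prom1*, *Myb*, *Fxyd2*, *Gata3*, *Tfap2c* and *Xbp1*. *Prom1*, the gene of the surface protein prominin-1 by which hormone sensing cells are sorted, had 9.23, 11.4 and 26.1 FPKM in MEC and 0.0552 to 0.629 FPKM in the lines (limma adjusted p = 0.00522). *Myb*, a transcription factor gene that is an estrogen target, had 7.77 to 11.5 FPKM in MEC and 0.67, 0 and 0.0646 FPKM in the lines, and *Fxyd2*, a regulatory subunit of the sodium pump, 5.20 to 5.59 FPKM and at most 0.0939 FPKM. These 3 genes were called in every alternative that tested them. *Gata3*, a factor that specifies luminal cells, had 13.6, 13.6 and 21.5 FPKM in MEC and 0.279, 2.00 and 5.52 FPKM in lines 199, 233 and 336, an order among the lines that *Foxa1* shared. It passed the test in 7 of 13 alternatives, and its limma adjusted p was 0.134, 0.128, 0.158 and 0.0919 without MEC 1, MEC 2, MEC 3 and line 233. *Prlr*, the prolactin receptor gene, had a mean below 1 FPKM, at 1.64 to 2.00 FPKM in MEC and 0.0716, 0 and 0.232 FPKM in the lines, and without the filter its limma adjusted p was 0.00754 for a log2 difference of -1.35. The table joins *Gata3* and *Prlr* each with other symbols in 1 entry, so these values are not theirs alone.

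The paracrine mediators *Areg* and *Wnt4* were tested and not called. *Areg* had 39.5, 46.7 and 13.9 FPKM in MEC and 22.7, 172 and 86.0 FPKM in lines 199, 233 and 336, a log2 fold change of 1.21 (limma adjusted p = 0.36) with overlapping groups. *Wnt4*, a ligand that progesterone induces, had 2.10 to 5.18 FPKM in MEC and 6.33, 11.1 and 7.05 FPKM in the lines, each above every preparation, as were 18.5% of tested entries, with a log2 fold change of 1.04 (limma adjusted p = 0.0981). Neither was called in any of 13 alternatives, and both stayed above 0 on the log2 scale.

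Among 21 steroid receptors and coregulators, 15 were tested, 1 fell, 1 rose and 13 were not called, with a median log2 fold change of 0.03. Over all tested entries 7.26% were called lower and 2.64% higher. *Nrip1*, a corepressor gene that estrogen induces, fell from between 22.2 and 24.0 FPKM in MEC to 8.05, 6.38 and 4.96 FPKM in the lines (log2 fold change -1.70, limma adjusted p = 0.00498), and it was called in all 13 alternatives. *Esrra*, an orphan receptor of energy metabolism, rose from 12.7 to 15.8 FPKM in MEC to 21.5, 32.4 and 32.0 FPKM (limma adjusted p = 0.0357). The call of *Esrra* was lost without MEC 1, MEC 2, MEC 3, line 233 or line 336, with adjusted p values from 0.0799 to 0.135. *Esr2*, the estrogen receptor beta gene, had 0 to 0.0159 FPKM in MEC, 0.0125 in line 199, and 0.603 and 0.558 FPKM in lines 233 and 336, and was below the filter.

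*Tnfrsf11a*, the gene of RANK, had 3.19, 4.08 and 3.33 FPKM in MEC and 0.451, 0.363 and 0.2 FPKM in lines 199, 233 and 336, a log2 fold change of -1.76 (limma adjusted p = 0.0074). The adjusted p was 0.0588 without MEC 1 and 0.0559 without MEC 2, and it was called in the other 10 alternatives that tested it. *Tnfrsf11b*, the decoy receptor osteoprotegerin, had 3.56, 4.58 and 11.2 FPKM in MEC and 1.92, 0.0236 and 1.83 FPKM in the lines (limma adjusted p = 0.101). Of the 12 genes of RANK ligand signaling listed, all tested, 2 fell (*Tnfrsf11a* and the adaptor *Traf5*), none rose and 10 were not called, with a median log2 fold change of -0.35. Over all tested entries 7.26% were called lower. *Traf5* had 1.72 to 2.04 FPKM in MEC and 0.206 to 0.675 FPKM in the lines, was called in 4 of 10 alternatives, and its adjusted p was 0.185, 0.0882 and 0.0851 without MEC 1, line 233 and line 336. Its adjusted p was 0.0616 with a pseudocount of 0.1 and 0.0516 with upper-quartile scaling, and with quantile normalization its log2 fold change was -0.47 in place of -1.03 (adjusted p = 0.206).

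Of 13 family relatives of the 9 genes, 7 were tested and 3 fell, *Cited4*, *Tnfsf10* and *Ly6d*, with none higher. *Cited4* had 20.0, 18.2 and 91.5 FPKM in MEC and 0.486, 1.69 and 3.55 FPKM in the lines, and *Tnfsf10*, the death ligand TRAIL, had 4.03 to 4.16 and 0.0131 to 0.121 FPKM. *Ly6d*, a gene of a surface protein of keratinocytes, had 29.5 to 59.8 FPKM in MEC and 7.0 to 15.4 FPKM in the lines. *Tnfsf10* was called in all 12 alternatives that tested it. *Cited4* lost its call without MEC 1 (adjusted p = 0.0748), MEC 2 (0.0679) or line 233 (0.0653), and *Ly6d* without MEC 1 (0.0946), MEC 2 (0.0857) or line 336 (0.0552). *Cited2*, which is expressed in most tissues, had 89.2 to 100.3 FPKM in MEC and 52.5, 86.0 and 127 FPKM in the lines, on both sides of the MEC range.

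Since *Ly6a* is induced by interferon, 15 interferon-stimulated genes were set beside it. All were tested, 2 fell (*Ifit3* and *Gbp2*), none rose and 13 were not called, where 7.26% of all tested entries were called lower. The median log2 fold change of the 15 genes was -2.13. Their summed FPKM was 858, 832 and 1612 in MEC, 101 in line 199, 1290 in line 233 and 220 in line 336. *Ly6a* had the reverse of the order of the sums in the lines, highest in line 199 and lowest in line 233. Of the sum in line 233, *Bst2* alone gave 622 FPKM. Single genes did not all follow the sums. All but *Ifit2* were highest in line 233, but several were lower in line 336 than in line 199. *Ifit2* was highest in line 199, as *Ly6a* was. Among the MEC preparations the order of *Ly6a* was the same as that of the sums, lowest in MEC 2 and highest in MEC 3. A link between *Ly6a* and interferon was not tested. *Ifit3* and *Gbp2* lost their calls without the filter and without MEC 1, MEC 2, MEC 3 or line 336, and *Ifit3* also without line 199, with adjusted p values between 0.0504 and 0.128.

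Most tested markers of the other luminal branch, the alveolar cells that make milk, were also lower in ME KO. Of 12 alveolar markers 9 were tested and 8 fell, with a median log2 fold change of -3.73, and it was -2.51 over all 12. Among the milk protein genes not tested, *Csn2* and *Wap* were listed at 0 in every library of both groups. *Csn1s2a* was at most 0.0891 FPKM in MEC. *Csn3*, the gene of kappa-casein, had 1068 to 1871 FPKM in MEC and at most 0.339 FPKM in the lines, and *Aldh1a3*, an aldehyde dehydrogenase gene, 72.8 to 224 and 0.309 to 4.92 FPKM. *Elf5*, which encodes the factor that specifies alveolar cells, had 31.5 to 44.3 FPKM in MEC and at most 0.461 FPKM in the lines, and *Kit* 9.9 to 14.9 and at most 0.13 FPKM. *Ltf*, the lactoferrin gene, fell from 107 to 381 FPKM to 4.17 to 19.6 FPKM, with an adjusted p of 0.0748 without MEC 1 and 0.0688 without MEC 2. Of 8 general luminal markers, all tested, 3 fell, *Krt19*, *Krt8* and *Epcam*, and 5 were not called (median -1.50). Of 9 basal markers, all tested, 3 fell, *Myh11*, *Oxtr* and *Mylk*, and 6 were not called (median -3.45). In line 199 the basal keratins, *Trp63* (15.65 FPKM), *Acta2* (720 FPKM) and *Cnn1* (16.8 FPKM) were higher than in lines 233 and 336. *Acta2* and *Cnn1* were still below every MEC preparation there. Calls of *Krt8*, *Epcam* and *Oxtr* were lost without MEC 1 or MEC 2, that of *Epcam* also without MEC 3 and that of *Oxtr* also without line 233 or line 336 (adjusted p 0.0528 to 0.0748). Whether hormone sensing genes changed more or less than these lists was not tested.

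**Figure D3:**
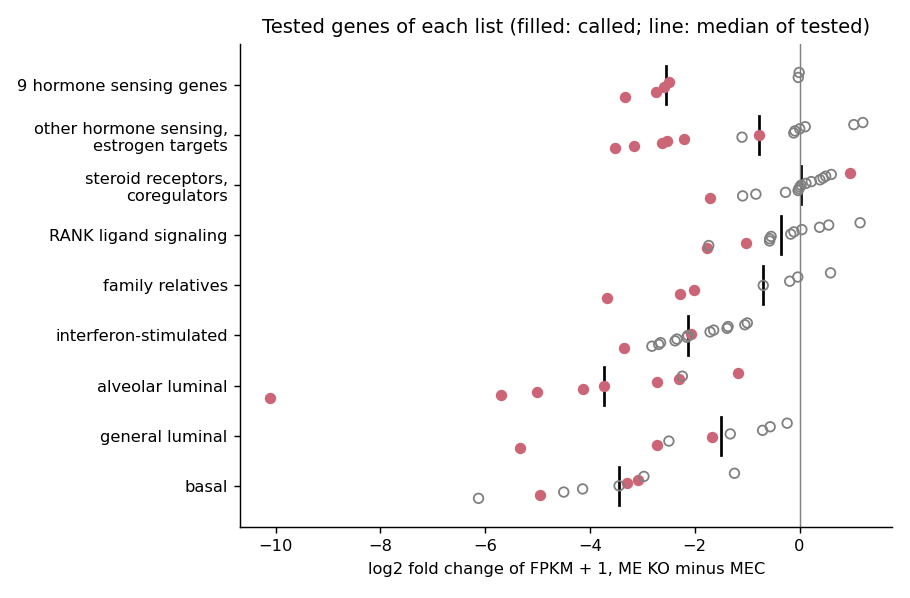
Log2 fold change of FPKM + 1, ME KO minus MEC, of each tested gene in 9 lists (rows); filled points were called, open points were not, and the black line is the median of the tested genes. The tested hormone sensing genes divide into 4 between -3.33 and -2.49 and 2 close to 0, and 8 of 9 tested alveolar markers are filled.

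For the 4 tested members with the highest means, the genes with the most similar pattern were found by Pearson's r of log2(FPKM + 1) over the 6 libraries. They were *Ier3* (0.998) for *Foxa1*, *Tpm4* (0.998) and *Pdlim7* (0.997) for *Tbx3*, *Msra* (0.997) and *Mfsd2a* (0.992) for *Stc2*, and *Tulp3* (0.996) and *Slc25a44* (0.992) for *Ly6a*. The 6 libraries form 2 groups, and for genes that differ between them r mostly restates that difference. An r of at least 0.99 was reached by 7 genes with *Foxa1*, 23 with *Tbx3*, 3 with *Stc2* and 3 with *Ly6a*.

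**Figure D4:**
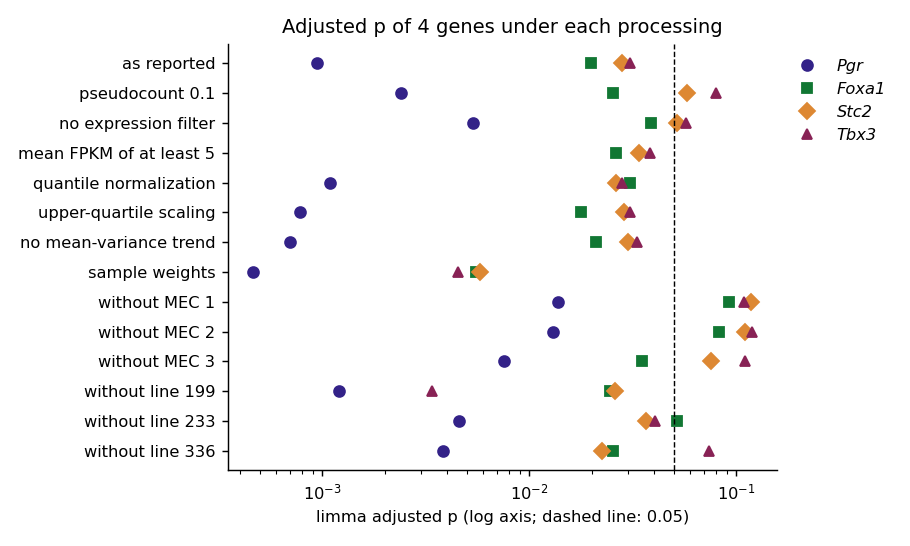
Limma adjusted p (log axis) of the 4 members called lower, as reported and under each alternative processing or with 1 library left out; the dashed line is the threshold of 0.05. *Pgr* stays to the left of the line in each row where it was tested, and the other 3 genes lie to its right without MEC 1 and without MEC 2.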

How the data were processed

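RNA was extracted with the RNeasy kit and sequenced by the authors from TruSeq libraries of 3 MEC preparations and 3 ME KO lines. Per the labels and the study's methods, the authors trimmed paired-end reads, aligned them to GRCm38 (mm10) with Bowtie2 and TopHat2 2.0.14, and computed the deposited FPKM values with Cufflinks 2.2.1, normalized for transcript length and library size. Groups were taken from the sample titles. The table has 37755 entries, 2 without values. The labels do not say whether the kit or the counting kept strand, and they give no batch or date.

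Where a symbol had several entries, that of highest mean was taken. The members and lists were chosen with earlier results of these data known. The text names all 9 members, up to 4 called genes of each list with the largest change, and receptors and mediators set by name. *Xbp1*, *Tfap2c*, *Kit*, *Cited2*, *Krt5*, *Ly6c1*, *Ly6i*, *Cd68*, *Ptprc*, *Lum*, *Fap* and the genes near *Pgr* were named after their values were seen. So were *Pdgfrb*, *Pdgfra*, *Thy1*, *Trp63*, *Acta2*, *Cnn1*, *Csn2*, *Wap*, *Csn1s2a*, *Bst2* and *Ifit2*. Some results are not reported here because they concern withheld items. Entries with a mean FPKM of at least 1 entered a limma 3.58.1 fit (R 4.3.3) of log2(FPKM + 1) with a mean-variance trend, and adjusted over all of them by the Benjamini-Hochberg method. The fit was tested on simulated data before use. Count models and the authors' Cuffdiff comparison were not run, since both need reads. Exact permutation tests were two-sided. Positions come from GENCODE M21 on GRCm38 and promoters from RefSeq on GRCm38.p6. Alternatives were a pseudocount of 0.1, no filter, a filter at 5 FPKM, quantile and upper-quartile normalization, no trend, sample weights, no fold-change threshold and each library left out. Their use on named genes that are no members was added after seeing the data. The study's text calls both the lines and the preparations independent. For these 6 libraries, limma p-values weigh the difference between the groups against the spread within them, adjusted toward that of genes of similar level.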

Additional observations from a re-analysis of the deposited data

How the results depend on the processing

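The number of genes called, 1234, was 738 with the filter at 5 FPKM and 1978 with sample weights, and it ranged from 259 (without MEC 1) to 1966 (without line 199) with 1 library left out. The 4 members called lower became 2 with a pseudocount of 0.1 and 2 without the filter, *Pgr* and *Foxa1* in each case, and ranged from 1 to 4 with 1 library left out. No member was called higher under any alternative. With quantile normalization *Esr1* was at 0.29 and *Ly6a* at 0.067 on the log2 scale, and with sample weights *Esr1* was at 0.20. With 1 library left out *Esr1* lay between -0.20 and 0.22 and *Ly6a* between -0.36 and 0.46. The log2 fold changes of *Pgr*, *Foxa1*, *Stc2* and *Tbx3* stayed below -2.03 in each alternative that tested them. The cause of these shifts was not tested. No paired analysis was possible because the MEC and ME KO libraries share no replicate number. *Greb1*, *Cited1* and *Tnfsf11* are limited by their low levels, and *Pgr*, with a mean below 5 FPKM, was not tested with the stricter filter, nor was *Esr1*.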

Other observations

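The 4 entries at 5 FPKM or more in every MEC library and listed at 0 in every line were *Pgr*, *Tph1*, *Serping1* and *Il17b*. All but *Pgr* were picked on these values. *Tph1*, which encodes the tryptophan hydroxylase of peripheral serotonin synthesis, had 35.6, 43.8 and 9.69 FPKM in MEC 1, 2 and 3. *Serping1*, the gene of the C1 inhibitor of complement, had 6.35, 9.98 and 12.1 FPKM, and *Il17b*, a cytokine gene, had 6.18, 5.09 and 10.4 FPKM.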
